A study of Daphnia magna with 24 samples.

Results

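The 34 array features described here are those of 14338 whose best protein match, in the authors' deposited table of silver exposures against medium, is named a cuticle or cuticular protein. They come from a water flea, Daphnia magna, and were chosen by the words of that description alone, whatever the strength of the match. The table itself covers 1826 features, of which 1024 carry a description, and 1824 hold a listed difference from medium in at least 1 exposure. Listing in it therefore rests on the comparison of exposed with medium arrays, so every difference from medium below is a description of how the features were selected and carries no test.

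The animals were kept in COMBO medium, and whole animals, about 20 to a replicate, were exposed for 24 h at 1/10 of the LC50 (the median lethal concentration) of each form of silver. Control animals received medium alone and Ag+ animals dissolved silver. The remaining 4 groups received silver nanowires, long (L) or short (S), with a coat of PVP (L-PVP-NW and S-PVP-NW) or SiO2 (L-SiO2-NW and S-SiO2-NW). There are 4 single-colour Cy3 arrays in each of these 6 groups, 24 in all, and each exposure had its own dose, so the amount of silver is not matched between them. Strain and age were not given in the sources used here, nor is it stated that replicates came from separate cultures, so p-values measure the spread between these samples only, which may be technical.

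The arthropod cuticle is a layered sheet of chitin fibres embedded in cuticle proteins, secreted by the epidermis and rebuilt at every moult. Many cuticle proteins carry the Rebers and Riddiford (RR) consensus, a stretch that binds chitin. In insects the RR-1 form is found mostly in flexible cuticle and the RR-2 form mostly in hard cuticle. Transcripts of cuticle proteins are known to rise and fall with the moult cycle in insects and crustaceans, and Daphnia goes on moulting as an adult. Moult stage is not given in the labels.

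The descriptions placed 2 of the 34 features in the RR-1 class (DM02191P2 and DM06031P1), 3 in the RR-2 class (DM06603P3, DM06160P3 and DM02211P2), and 29 in neither. The features lie on 34 different contigs of 123 to 1318 bases but match only 20 different proteins. Of these proteins, 1 putative cuticle protein of the brine shrimp Artemia franciscana is the best match of 11 features, and Cuticle protein 7 of a cockroach that of 3. Features also share matches in pairs: DM02582P1 and DM03723P1 match Cuticular protein 50Cb, and DM02211P2 and DM06160P3 match cuticular protein 146. In the related Daphnia pulex, DM02582P1, DM02274P1, DM06161P1 and DM03723P1 match the same assembled sequence. DM06772P1 and DM01215P1 share another. Whether features on different contigs stand for different genes was not tested. Match strength varied widely, with E values (the number of matches as good that a search would return by chance) from 7e-24 to 4.1. An E value of 0.001 or less was held by 19 features, and the other 15 keep the name as a label only.

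The table also gives the reading frame of each match, which was positive for 24 features and negative for 10. Some probes of features with positive and negative frames are set side by side here because they share stretches on opposite strands. Capitals mark the letters TACAGTTT in the first 2 probes, which match in a positive frame, and their reverse complement AAACTGTA in the other 2, which match in a negative frame.
DM02582P1: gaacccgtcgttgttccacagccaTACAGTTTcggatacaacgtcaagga
DM06161P1: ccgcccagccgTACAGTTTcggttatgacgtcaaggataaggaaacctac
DM03723P1: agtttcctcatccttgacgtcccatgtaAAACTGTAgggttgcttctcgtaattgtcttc
DM01215P1: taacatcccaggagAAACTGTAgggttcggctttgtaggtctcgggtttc
Of the 1826 probes in the table, 8 (0.438%) hold these letters on either strand, and 4 of the 8 are cuticle features. The letters were picked from these probes. A single probe of a negative-frame feature, DM06405P1, holds the reverse complements of stretches in 2 positive-frame features, and the capitals mark them (the 2 stretches in DM06405P1 overlap).
DM06653P1: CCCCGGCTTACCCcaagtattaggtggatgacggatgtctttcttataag
DM06603P3: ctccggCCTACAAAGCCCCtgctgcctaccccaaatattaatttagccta
DM06405P1: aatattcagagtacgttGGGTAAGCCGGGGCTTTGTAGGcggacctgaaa
Each of these stretches occurs in 2 of the 1826 probes (0.11%) on either strand. The probe of another negative-frame feature, DM02344P1, shares its capitals with the positive-frame DM02085P1 on the same strand.
DM02085P1: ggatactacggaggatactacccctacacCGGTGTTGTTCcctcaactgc
DM02344P1: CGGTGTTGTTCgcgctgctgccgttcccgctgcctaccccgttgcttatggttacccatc
Among pairs with 1 feature of each frame, 4 of 240 shared 11 or more bases on opposite strands and 2 on the same strand. Of the negative-frame features, only DM06405P1, DM03723P1 and DM01215P1 were in the opposite-strand pairs, and only DM02344P1 in the same-strand pairs. Of 276 pairs in positive frames and 45 in negative frames, 2 each shared such a stretch on the same strand and 0 on opposite strands.

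Frame went with brightness. Over the 24 arrays the median of the mean scanner intensities was 1003 for the 24 positive-frame features and 79.1 for the 10 negative-frame features. A feature is called dim here on an array when it reads no more than 2 times that array's lower quartile, a limit of 100 to 116. By that measure 7 of the 10 negative-frame features (70%) were dim on 20 or more of the 24 arrays, against 1 of 24 positive-frame features (4.17%), DM06815P2. The other features of the table with an E value of 0.001 or less ran the same way, with 59 of 172 (34.3%) dim in negative frames and 48 of 302 (15.9%) in positive frames. The brightest negative-frame cuticle feature was DM02344P1, a match to cockroach Cuticle protein 7, with a mean Control intensity of 7930. DM06316P3 and DM02436P2, also in negative frames, were above the dim limit on 18 and 12 of the 24 arrays. What sets the low signal of negative-frame probes was not tested.

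**Figure D1:**
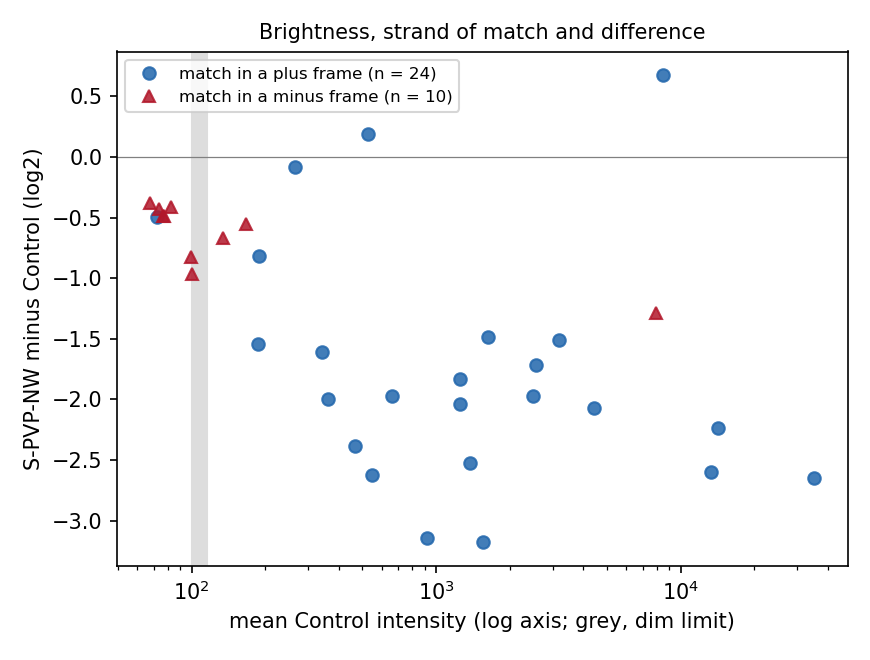
Each of the 34 cuticle features by its mean Control intensity (horizontal, log axis) and its S-PVP-NW minus Control difference in log2 (vertical), with circles for positive and triangles for negative reading frames and a grey band for the dim limit of 100 to 116. The dim negative-frame features lie at the left with small differences, and the brighter positive-frame features spread down to -3.18.

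On the arrays as a whole, median intensities ran from 60 to 72, and arrays of a group correlated at 0.918 to 0.977 over features. Of the 34 features, 22 were above the dim limit on at least 20 arrays and 8 were dim on at least 20. On Ag+ 2, 310 features read exactly 0 and were treated as missing, and 1 of them is a cuticle feature, DM02276P3, whose Ag+ values rest on 3 arrays. Marker words for organs of a whole animal found 9 myosin, 11 vitellogenin, 16 trypsin or chymotrypsin, 3 opsin and 6 hemoglobin features, each list with features above the dim limit in every group.

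Relative to medium, more cuticle features were called lower after short PVP-coated nanowires than after any other exposure. Values below Control were as frequent in Ag+ as in S-PVP-NW, with 32 of 34 in each. There were 30 in S-SiO2-NW, 29 in L-SiO2-NW and 22 in L-PVP-NW. In S-PVP-NW the median log2 difference was -1.53, and 21 were called lower and 0 higher at an adjusted p under 0.05 (limma over all features). Of all 14338 features, 1.07% were called lower there and 0.286% higher. In 24 of the 34 every S-PVP-NW array lay below every Control array, against 3.58% of all features. Dissolved silver gave a median of -0.66 with 14 called lower and 0 higher (7.53% of all features lower, 10.3% higher), and S-SiO2-NW a median of -0.77 with 10 called lower and 0 higher (1.92% of all features lower, 2.82% higher). The long nanowires gave no called feature: the median was -0.15 in L-PVP-NW, where 1 had an unadjusted p under 0.05, and -0.33 in L-SiO2-NW, where 9 did. Of all features, 0% were called lower and 0.0279% higher in L-PVP-NW, and 0.37% lower and 0.593% higher in L-SiO2-NW. The median over all features lay between -0.00 and 0.01 in each of these comparisons. Under median centring the cuticle medians were -1.24 in S-PVP-NW, -0.38 in Ag+, -0.40 in S-SiO2-NW and -0.15 in L-SiO2-NW, and the Ag+ count was 8. All 5 share the same 4 Control arrays, and since these contrasts chose the features nothing is read from the counts.

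The counts include features that were dim on every array of both groups, 4 of the 21 in S-PVP-NW, 2 of the 14 in Ag+ and 2 of the 10 in S-SiO2-NW. Individual Control arrays weighed on the S-SiO2-NW count, which was 1 without Control 1 and 16 without Control 4. When the array floor (the 1st percentile of intensity) was fitted as a covariate, 0 were called in S-PVP-NW or S-SiO2-NW, while the S-PVP-NW median stayed at -1.55 and its standard errors grew 1.78-fold. Floors were 41 to 43 on S-PVP-NW arrays and 46 to 50 on Control arrays, so floor and exposure cannot be fully told apart. L-SiO2-NW arrays had floors of 41 to 43 as well, with a cuticle median of -0.33.

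Across the 6 groups, S-PVP-NW had the lowest mean for 28 of 34 features, Ag+ for 3 and S-SiO2-NW for 2. Control had the highest mean for 20, L-PVP-NW for 10 and L-SiO2-NW for 4. In whole-animal RNA, less RNA per cell and fewer cells of a type cannot be told apart.

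**Figure D2:**
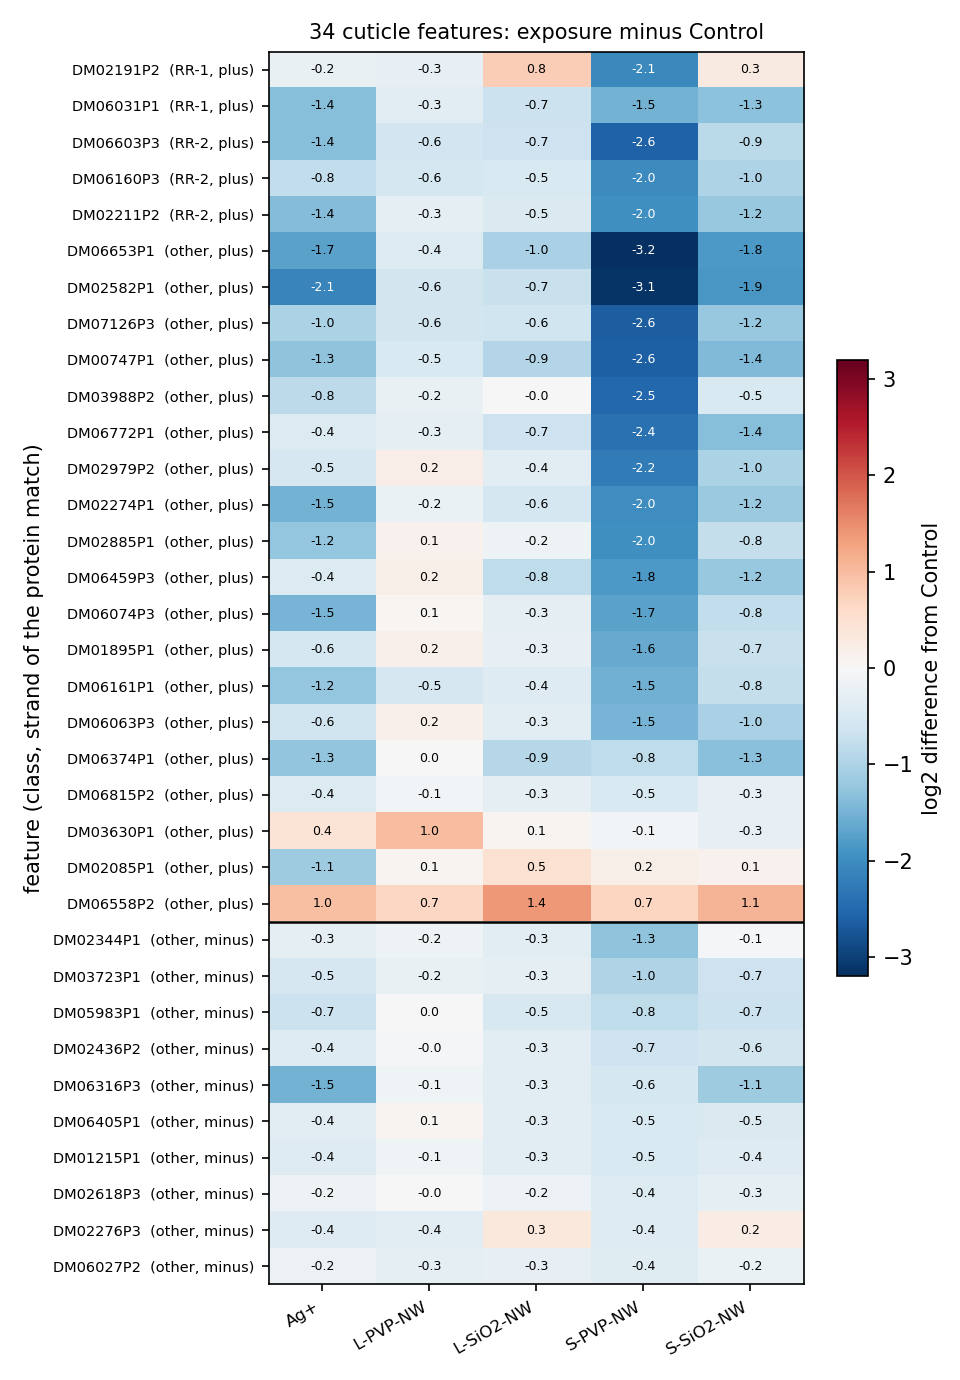
Difference from Control in log2 (cell values and colour) for the 34 cuticle features (rows, with class and reading frame) in the 5 exposures (columns), positive frames above the black line. The S-PVP-NW column holds the darkest cells, down to -3.18 for DM06653P1, and DM06558P2 is above 0 in every exposure.

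In S-PVP-NW minus Control the median was -2.03 for the RR-2 features, -1.79 for RR-1 and -1.28 for the rest. All 5 RR features match in positive frames, over whose 24 features the median was -1.97. DM06603P3, whose name comes from an aphid RR2 cuticle protein (E = 0.32), read 11749, 17420, 11632 and 12559 on the Control arrays and 1741, 2090, 4412 and 2032 on the S-PVP-NW arrays. Every S-PVP-NW array lay below every Control array, and the log2 difference was -2.60 (SE 0.48). DM06160P3, a match to mosquito cuticular protein 146 (E = 0.002), read 937, 1804, 852 and 1410 in Control and 248, 364, 789 and 346 in S-PVP-NW, a difference of -2.03 (SE 0.44). Its groups did not overlap either. DM02211P2 matches the same mosquito protein more strongly (E = 4e-14) and read 3382, 2372, 2561 and 1688 in Control against 485, 961, 1189 and 720 in S-PVP-NW, a difference of -1.97 (SE 0.45). All 3 were called lower in S-PVP-NW. In Ag+ only DM02211P2 was called lower, at -1.38 (SE 0.45), with 924 to 1702 on its 4 arrays, all below the lowest Control array once normalised.

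Both RR-1 features were below Control in S-PVP-NW, and their values differed in other exposures, with no test between them. DM06031P1, a match to mosquito cuticular protein 13 (E = 0.0004), read 2899 to 3844 in Control, 1184 to 2176 in Ag+, 1016 to 1717 in S-PVP-NW and 1076 to 3170 in S-SiO2-NW. The differences from Control were -1.37 (SE 0.35), -1.51 (SE 0.35) and -1.31 (SE 0.35), and all 3 were called lower. DM02191P2, a match to mosquito cuticular protein 77 (E = 2e-14), read 5431, 4292, 2495 and 5494 in Control and 298, 2458, 3657 and 887 in S-PVP-NW. The S-PVP-NW arrays spread widely among themselves, and the difference of -2.07 (SE 0.57) was not called. In L-SiO2-NW the same feature read 7024, 10253, 23057 and 5202, which lie around and above the Control values, a difference of 0.78 (SE 0.57) that was not called.

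Among the 11 features that match the Artemia protein, 9 were called lower in S-PVP-NW and 6 in Ag+ (1.07% and 7.53% of all features). DM06653P1 (E = 0.54), whose probe is printed above, had the largest difference of all 34. It read 2006, 1924, 1269 and 1049 in Control, 98, 236, 455 and 191 in S-PVP-NW, and 571, 850, 598 and 587 in Ag+. The S-PVP-NW array at 98 is dim, and no S-PVP-NW or Ag+ array reached the lowest Control array. The differences were -3.18 (SE 0.47), a 9.05-fold lower level, in S-PVP-NW and -1.71 (SE 0.47) in Ag+. DM00747P1, with the stronger match (E = 5e-07), read 662, 571, 571 and 380 in Control and 81, 95, 155 and 116 in S-PVP-NW, a difference of -2.62 (SE 0.34). It was also lower in Ag+, at 250 to 420, and in S-SiO2-NW, at 267 to 427, without overlap once normalised. DM06772P1 (E = 1.1) read 409 to 608 in Control, 86 to 134 in S-PVP-NW and 356 to 630 in Ag+, so that it stood apart from Control in S-PVP-NW at -2.39 (SE 0.39) and overlapped it in Ag+. DM06074P3 (E = 0.0006) differed in both, with 1474 to 3368 in Control, 929 to 1403 in Ag+ and 405 to 1536 in S-PVP-NW. DM06459P3 (E = 0.078) read 950 to 1720 in Control, 291 to 611 in S-PVP-NW and 1061 to 1591 in Ag+.

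The features outside these classes included the brightest of the set. DM07126P3, labelled a putative cuticle protein LCP6 of Drosophila melanogaster on a very weak match (E = 4.1), read 38500, 34763, 43994 and 23656 in Control and 1889, 8243, 10056 and 5887 in S-PVP-NW, a difference of -2.65 (SE 0.43). The groups did not overlap, and the array at 1889 lay far below the other S-PVP-NW arrays. DM02582P1, a match to Drosophila Cuticular protein 50Cb (E = 2e-09), read 800, 1466, 559 and 855 in Control against 99, 84, 302 and 88 in S-PVP-NW, of which 3 arrays are dim, and 180, 603, 106 and 400 in Ag+. The Ag+ difference was -2.12 (SE 0.71), called without the replicate block and not with it (limma adjusted p = 0.0772). In S-PVP-NW the size of the difference rests on 1 array above the dim limit. DM03988P2, labelled an aphid cuticle protein (E = 0.39), read 708 to 1813 in Control and 93 to 825 in S-PVP-NW. After normalisation those groups did not overlap, with a difference of -2.52 (SE 0.43).

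Further features were called lower in dissolved silver. DM06316P3, labelled Endocuticle structural glycoprotein SgAbd-1 of a locust (E = 0.011), read 170, 202, 140 and 154 in Control and 67, 60, 67 and 61 in Ag+, where all 4 arrays are dim and the level was at least 1.83-fold lower. S-PVP-NW arrays read 125 to 152 and overlapped Control once normalised, at -0.55 (SE 0.23), while S-SiO2-NW arrays read 56, 115, 133 and 105 and lay below Control at -1.14 (SE 0.23). DM06374P1, a match to Drosophila Cuticular protein 78Cc (E = 0.027), read 143 to 268 in Control and 75 to 94 in Ag+, again dim on every Ag+ array, at least 2.07-fold lower. It read 102, 48, 140 and 103 in S-SiO2-NW, a difference of -1.34 (SE 0.31), and its difference in S-PVP-NW was -0.82 (SE 0.31). Both features were called lower in Ag+ and in S-SiO2-NW and neither was called in S-PVP-NW. DM02274P1, a match to a mosquito cuticle protein (E = 4e-13), was called in both, with 283 to 420 in Control, 114 to 268 in Ag+ and 64 to 188 in S-PVP-NW.

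A few features stood above Control in 1 or more exposures. DM06558P2, labelled a silkworm cuticle protein (E = 0.21), read 9808, 10415, 1112 and 12591 in Control and 25416, 15880, 19047 and 21009 in L-SiO2-NW. Control 3, at 1112, lies far below the other 3 Control arrays, and differences from Control ran from 0.66 in L-PVP-NW to 1.38 (SE 0.38) in L-SiO2-NW with none called. DM03630P1, another match to the Artemia protein (E = 0.064), read 252, 398, 133 and 276 in Control and 485, 510, 863 and 290 in L-PVP-NW, a difference of 0.98 (SE 0.53) that was not called, with overlapping groups. DM02085P1, a match to cockroach Cuticle protein 7 (E = 1e-16), read 406 to 696 in Control, 149 to 801 in Ag+, 682 to 1158 in S-PVP-NW and 741 to 2120 in L-SiO2-NW. Its difference was 0.19 in S-PVP-NW and -1.13 in Ag+, neither of them called.

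**Figure D3:**
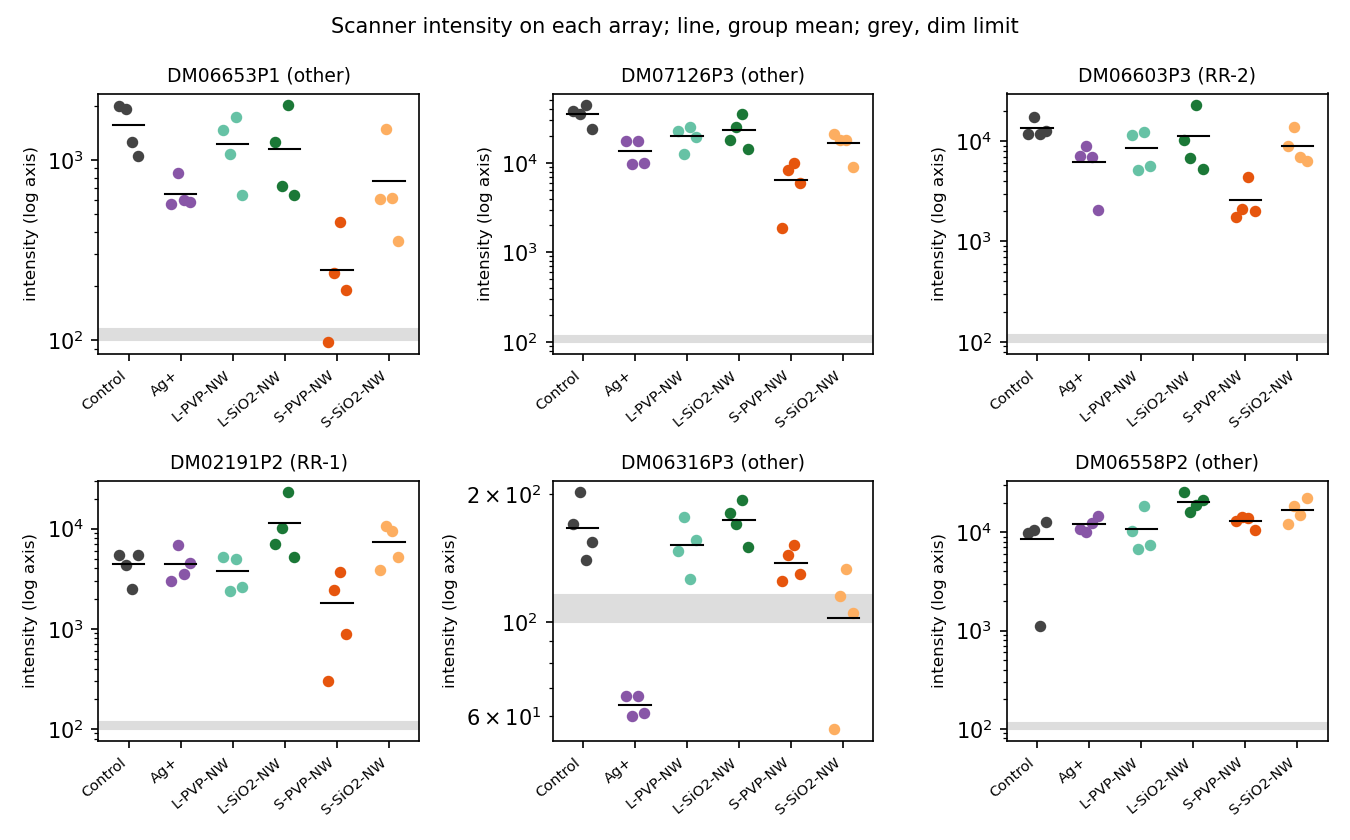
Scanner intensity on each of the 24 arrays (points, log axis) for 6 cuticle features in the 6 groups, with a line at each group mean and a grey band for the dim limit. S-PVP-NW has the lowest group mean in DM06653P1, DM07126P3 and DM06603P3 (245, 6519 and 2569), Ag+ points of DM06316P3 lie below the band, and Control 3 of DM06558P2 stands at 1112.

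The authors' deposited table lists 61 differences from medium for these features, and all 61 have the sign found here. In S-PVP-NW, 31 are listed in the authors' deposited table, all below 0 and from -3.4 to -0.4 on the log2 scale. The authors' deposited table lists 13 each for Ag+ and S-SiO2-NW, all below 0, with 3 for L-SiO2-NW and 1 for L-PVP-NW.

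Comparisons among the exposures take no difference from Control, though the Control arrays enter the shared estimate of spread. They use exposed arrays on which the listing also rests, so their p-values are not independent of how the features came to be listed. With 31 of the 34 listed below 0 for S-PVP-NW in the authors' deposited table and 1 listed for L-PVP-NW, a fall of S-PVP-NW against L-PVP-NW or Ag+ was favoured by the choice of features, and the counts and p-values below are descriptions that lend it no support. In S-PVP-NW minus L-PVP-NW 32 of 34 features were below 0, the median log2 difference was -1.32, and 17 fell while 0 rose, where 1.36% of all features fell and 0.788% rose. In 26 features every S-PVP-NW array lay below every L-PVP-NW array, against 5.21% of all features. The count was 4 when L-PVP-NW A was left out and 0 when the array floor was a covariate, under which the median was -0.95.

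The falls with the lowest adjusted p included those of Artemia-match features. DM00747P1 read 620, 245, 792 and 222 in L-PVP-NW against 81, 95, 155 and 116 in S-PVP-NW, a fall of 4.38-fold (log2 -2.13, SE 0.34, limma adjusted p = 0.00423). DM06653P1 read 1475, 1083, 1746 and 640 against 98, 236, 455 and 191 (log2 -2.73, SE 0.47, limma adjusted p = 0.00659). No array of one group reached the other in either feature. DM06772P1 read 448, 330, 764 and 202 against 86, 119, 134 and 109 (log2 -2.07, SE 0.39, limma adjusted p = 0.0092). DM03988P2, the aphid match, read 1029, 733, 1703 and 1443 against 93, 374, 825 and 278 (log2 -2.30, SE 0.43, limma adjusted p = 0.00971). These 4 passed with any of the 8 arrays left out. DM06459P3 (log2 -2.01, limma adjusted p = 0.0156) and DM07126P3 (log2 -2.05, limma adjusted p = 0.0196) each passed in 7 of 8. Of the RR features, DM06603P3 passed (log2 -1.98, SE 0.48, limma adjusted p = 0.036), in 2 of 8 when an array was left out, and DM02211P2 (-1.66, limma adjusted p = 0.0573), DM06031P1 (-1.17, limma adjusted p = 0.087), DM06160P3 (-1.47, limma adjusted p = 0.088) and DM02191P2 (-1.80, limma adjusted p = 0.105) did not. Of the 17, DM02618P3, DM05983P1, DM03723P1 and DM06815P2 were dim on every array of both groups.

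With the silica coat the length difference was smaller in value. S-SiO2-NW minus L-SiO2-NW had a median of -0.44 with 31 of 34 below 0, and 0 features passed by limma (2 at an unadjusted p under 0.05), against 0.00697% of all features that fell and 0.0279% that rose. Whether coat changed the length difference was tested as an interaction, which gave a median of 0.94, with 0 features past the test by limma (14 at an unadjusted p under 0.05), against 0% of all features lower and 0.0209% higher. The difference between the length effects is therefore not shown for any single feature.

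Between coats, S-SiO2-NW minus S-PVP-NW had a median of 0.71, and 1 feature rose, DM03988P2, where 0.467% of all features rose and 0.432% fell. It read 1121, 2205, 1552 and 1202 in S-SiO2-NW against 93, 374, 825 and 278 in S-PVP-NW, with no overlap (log2 2.04, SE 0.43, limma adjusted p = 0.0323), and passed in 3 of 8 when an array was left out. For long wires, L-SiO2-NW minus L-PVP-NW had a median of -0.21 with 0 features past the test by limma (6 at an unadjusted p under 0.05) against 2.1% of all features that fell and 2.69% that rose. Under median centring that median was 0.00, so it has no settled direction.

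Against dissolved silver, the nanowires went different ways. In S-PVP-NW minus Ag+ the median was -0.51, with 7 features that fell (5.67% of all features) and 1 that rose (5.85% of all features). The fall was largest in DM06772P1, which read 86, 119, 134 and 109 in S-PVP-NW against 356, 630, 570 and 442 in Ag+ (log2 -1.94, SE 0.39, limma adjusted p = 0.0035). The riser was DM06316P3, at 125 to 152 in S-PVP-NW and 60 to 67 in Ag+, at least 1.24-fold higher since every Ag+ array is dim (limma adjusted p = 0.0118). Both passed with any of the 8 arrays left out. The other 6 that fell were DM00747P1, DM03988P2, DM07126P3, DM06459P3, DM02191P2 and DM06653P1, with log2 differences from -1.34 to -1.83 and limma adjusted p-values from 0.0152 to 0.0484. Among them is the RR-1 feature DM02191P2, which read 298, 2458, 3657 and 887 in S-PVP-NW against 2965, 6866, 3548 and 4543 in Ag+ (log2 -1.83, SE 0.57, limma adjusted p = 0.0428). When an array was left out, DM03988P2 passed in 7 of 8, DM00747P1 and DM07126P3 in 6, DM02191P2 and DM06459P3 in 3 and DM06653P1 in 1. Without S-PVP-NW 1 only 2 features passed in all. With the array floor as covariate 0 passed and the median was -0.27.

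In L-PVP-NW minus Ag+ the median was 0.66, and 7 features rose and 0 fell, where 7.01% of all features rose and 8.57% fell. DM06316P3 read 147, 177, 126 and 156 in L-PVP-NW, at least 1.67-fold above Ag+ (limma adjusted p = 0.00129), and DM06374P1 read 207, 231, 146 and 173, at least 2.10-fold above 94, 88, 75 and 93 in Ag+ (limma adjusted p = 0.00939). The Artemia match DM06074P3 read 3763, 1906, 3246 and 2006 against 1396, 929, 1403 and 1122 (log2 1.54, SE 0.39, limma adjusted p = 0.0126). In each of these 3 features no L-PVP-NW array overlapped Ag+, and they passed in 8, 8 and 7 of 8 when an array was left out. DM02274P1 rose by 1.31 on the log2 scale (SE 0.39, limma adjusted p = 0.0288), with 270 to 356 in L-PVP-NW and 114 to 268 in Ag+, and passed in 3 of 8. The other 3, DM05983P1, DM06815P2 and DM01215P1, were dim on every array of both groups. The count was 0 with the array floor as covariate (median 0.59), 3 under median centring (median 0.33) and 14 when only the arrays compared were fitted. In L-SiO2-NW minus Ag+, DM06316P3 (at least 1.44-fold, limma adjusted p = 0.00411) and DM02085P1 (log2 1.61, SE 0.49, limma adjusted p = 0.0491) rose and 0 fell, where 3.1% of all features rose and 4.45% fell. DM02085P1 passed in 2 of 8 when an array was left out. In S-SiO2-NW minus Ag+ the median was 0.01, or -0.09 after scaling to a common 75th percentile, and 0 features passed by limma (3 at an unadjusted p under 0.05), against 1.24% of all features that fell and 1.39% that rose.

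Cuticle features also varied together among arrays of the same group. For each feature the deviation of every array from its group mean was taken on the normalised log2 scale, and features were correlated over the 24 arrays. The median correlation over the 561 pairs of the 34 features was 0.35, with 81.6% of pairs above 0, while over all pairs of features with a mean above the dim limit the median was -0.002. Features compared on the same arrays share labelling and scan, some share sequence, and no p is given. By subset the median was 0.60 among the 11 Artemia matches, 0.45 among the 3 RR-2 features, 0.43 among positive-frame and 0.17 among negative-frame features, and the RR-1 pair correlated at 0.12. Leaving out 1 array at a time gave medians for the 34 from 0.27, without L-SiO2-NW 3, to 0.39.

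The common movement is easiest to see in the 22 features that were above the dim limit on at least 20 arrays. Their mean normalised log2 level was 11.05 ± 0.36 (SD, n = 4) in Control, 10.94 ± 0.26 in L-PVP-NW and 10.75 ± 0.74 in L-SiO2-NW. It was 10.23 ± 0.34 in S-SiO2-NW, 10.19 ± 0.20 in Ag+ and 9.23 ± 0.48 in S-PVP-NW. Ranges of neighbours in this order overlapped except the last: S-PVP-NW arrays lay between 8.55 and 9.70 and every other array at 9.89 or above. With 31 of the 34 cuticle features listed below 0 for S-PVP-NW in the authors' deposited table, this separation was favoured by the choice of features. L-SiO2-NW spread most, from 9.92 to 11.69. Array L-SiO2-NW 3 stood 0.94 above its group mean with 20 of the 22 features above, and L-SiO2-NW 4 stood 0.83 below (a deviation of -0.83) with 21 of 22 below. S-PVP-NW 1 deviated by -0.68 with 18 of 22 below, Control 4 by -0.51 with 19 of 22 below, and on L-PVP-NW A all 22 stood above their group mean.

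The features nearest to this common movement were DM06653P1, whose deviations correlated at 0.89 with the mean of the other bright cuticle features, DM02885P1 at 0.88, DM06772P1 at 0.80 and DM01895P1 at 0.80. DM02885P1 is labelled an aphid cuticle protein, and DM01895P1 has the strongest match of all 34 (E = 7e-24, the Artemia protein). RR-2 features came to 0.73 for DM06160P3, 0.66 for DM02211P2 and 0.64 for DM06603P3, and RR-1 features to 0.77 for DM02191P2 and 0.45 for DM06031P1. The lowest values among the brighter features were -0.18 for DM06558P2, -0.09 for DM02085P1 and 0.12 for the negative-frame DM02344P1. DM03630P1, which also stood above Control in places, had 0.56.

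Array-wide measures, not shown to be technical, were set beside the arrays' mean deviation. The first principal component of the residuals of all other features carried 26.4% of their variance and correlated with it at -0.00 (Spearman -0.14) over the 24 arrays. The deviation of the array floor correlated with it at 0.13 (Spearman 0.06). These arrays are 4 to a group, and moult stage, which was not recorded in the labels, was not tested.

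**Figure D4:**
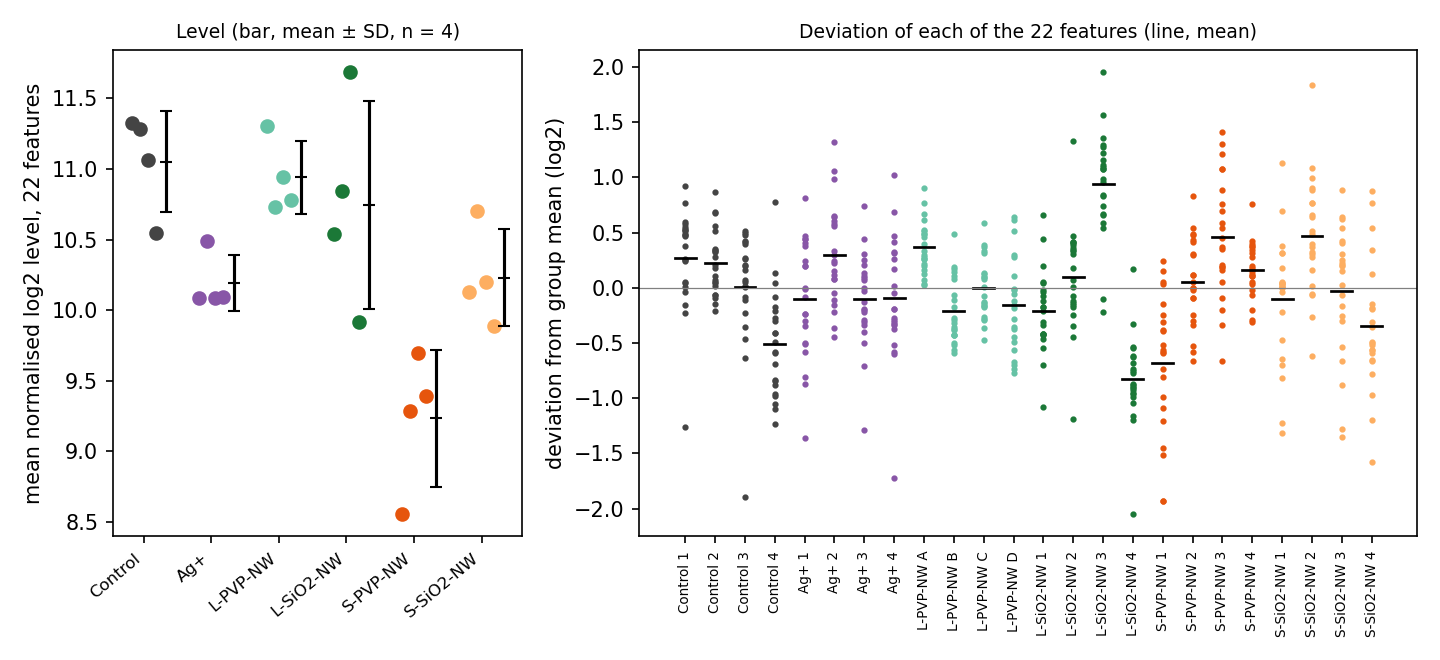
Left, mean normalised log2 level of the 22 brighter cuticle features on each array (points) with the mean and SD of each group (bars, n = 4). Right, deviation of each of these 22 features from its group mean on each array (small points) with their mean (lines), in which L-SiO2-NW 3 stands at 0.94, L-SiO2-NW 4 at -0.83 and S-PVP-NW 1 at -0.68.

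Other features of cuticle building were few in the table, and their descriptions came under the same selection. Chitinases cut the chitin of the old cuticle at the moult, and the list of chitin words holds 7 features, 4 with an E value of 0.001 or less. In S-PVP-NW minus Control 0 of the 7 were called and their median was 0.16, and in Ag+ 1 was called higher (median 0.50, 10.3% of all features called higher). That feature, DM00251P1, a match to a chitin-binding protein, read 128 to 269 in Control, 330 to 1692 in Ag+ and 145 to 332 in S-PVP-NW, and it fell from Ag+ to S-PVP-NW (log2 -1.57, limma adjusted p = 0.00735). The chitinase DM00651P1 was higher in L-SiO2-NW, at 79 to 465, than in L-PVP-NW, at 57 to 65 (limma adjusted p = 0.0273), and every L-PVP-NW array was dim. Over arrays its deviations correlated at -0.52 with the mean of the cuticle features, those of the chitinase DM01392P4 at -0.43 and those of the chitinase DM01822P3 at 0.36.

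Tanning enzymes cross-link cuticle proteins, and 7 features held words for them, 4 with an E value of 0.001 or less. Some of the 7 are no tanning enzymes, such as the kinase match DM06556P1. In S-PVP-NW minus L-PVP-NW 2 fell and 0 rose (1.36% and 0.788% of all features). DM01544P2, an animal haem peroxidase, fell furthest, with 64 to 257 in S-PVP-NW against 409 to 1202 in L-PVP-NW (log2 -2.43, SE 0.43, limma adjusted p = 0.00724), and it correlated at 0.37 with the cuticle features. In Ag+ minus Control 3 of the 7 features with tanning words were called higher and 1 lower (10.3% and 7.53% of all features). Dopa decarboxylase (DM02360P4) and tyrosine 3-monooxygenase (DM00246P1), which make the catecholamine precursors of tanning agents, were among the 3. Both were dim on all 4 arrays of Control and of Ag+, and their mean intensities over all arrays, 65.2 and 89.0, are below the dim limit. Of 4 features with hormone receptor or related words, the match to Hormone receptor-like in 46 (DM03410P1, E = 0.017), a nuclear receptor induced in Drosophila by the moulting hormone ecdysone, was called lower in Ag+, at 114 to 675 against 397 to 1125 in Control, and rose from Ag+ to S-PVP-NW by 1.39 (limma adjusted p = 0.0379). Among these 4 features, 1 was called lower than Control and 0 higher in each of Ag+, S-PVP-NW and S-SiO2-NW. Of all features, 7.53%, 1.07% and 1.92% were called lower there. DM03410P1 had a mean intensity of 869 in Control, 947 after S-PVP-NW and 1634.5 after S-SiO2-NW. The lower calls after these short nanowires were therefore not of DM03410P1. Of 8 matrix features (collagens and integrin), 0 passed in S-PVP-NW minus L-PVP-NW by limma. In S-PVP-NW 1 of the 8 was called lower than Control and 2 lower than Ag+, with 0 higher in both (1.07% and 5.67% of all features lower).

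Features with organ words also differed from medium. They too were found by descriptions in the authors' deposited table, so their differences from Control describe that selection and carry no test. All 4 summed intensities of the 9 myosin features lay at 742 to 967 in Ag+ against 1734 to 2461 in Control, and at 1659 to 2200 in S-PVP-NW. The 11 vitellogenin features summed to 13703 to 22043 in Ag+, 33453 to 99089 in Control, 21544 to 60224 in S-PVP-NW and 7085 to 37550 in L-PVP-NW. In Ag+ 8 of 9 myosin and 8 of 11 vitellogenin features were called lower than Control (7.53% of all features), and in S-PVP-NW 0 and 2 (1.07% of all features). The 3 opsin features summed to 824 to 1202 in Control and lay above it without overlap in Ag+, at 1530 to 4506, and in L-SiO2-NW, at 1786 to 3717, while S-PVP-NW sums of 1145 to 1915 overlapped Control. Of these 3, 1 was called higher than Control in Ag+ and 0 in L-SiO2-NW (10.3% and 0.593% of all features). Only 1 of the 3 has an E value of 0.001 or less. Sums of the trypsin or chymotrypsin and of the hemoglobin features overlapped Control in every exposure. Their part in the cuticle values was not tested.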

How the data were processed

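The intensities are single-channel scanner values as the authors deposited them, whole numbers that are not scaled between arrays; the scanner and its software were not given in the sources used here. Per the labels, total RNA from whole animals was labelled with Cy3 by a one-colour Agilent kit. The authors' deposited table holds log2 differences from media, rounded to 1 decimal, and E values, scores of sequence matches per the file headers. Per the series' design text, each exposure had 16 array-by-array comparisons; its threshold was not given in the sources used here.

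Zeros (310, on Ag+ 2) were set missing. Intensities were corrected by normexp (offset 50), taken to log2 and quantile-normalised in limma 3.58.1 (R 4.3.3). The offset pulls differences of dim features toward 0. A model with 1 mean per group over 24 arrays gave moderated two-sided tests (eBayes, prior df 1.59), adjusted by Benjamini-Hochberg over 14338 features at 0.05; every adjusted p in the text is from this limma fit. With 4 arrays against 4, an exact permutation test cannot go below 0.0286. Arrays with the same replicate number deviated together in every pair of Control with Ag+ (r from 0.13 to 0.41). They also did so for Ag+ with S-SiO2-NW (0.26 to 0.43). No other pair of groups did in every pair, and Control with S-SiO2-NW ran from -0.05 to 0.30. Only 6 of 20 arrays correlated best with their own number. Whether single arrays pair by number is therefore not settled, and the labels do not say. Numbers did go with a split in the first principal component of the residuals of all other features. Arrays 1 and 3 lay across 0 from arrays 2 and 4 in every numbered group. They scored -22.3 and -13.2 for Control, with negative scores also for Ag+ and S-SiO2-NW. Scores were positive for S-PVP-NW (15.1 and 16.6) and likewise L-SiO2-NW (19.5 and 12.7). The replicate block does not allow for this reversal, and its source was not tested. The script was tested on simulated data. "At least" folds set a dim group at the array's dim limit, or its own value if higher.

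The members and word lists were chosen with earlier results of these data known, and the set of 22 brighter features after their values were seen. Features given array by array are, per class, the 3 with the largest S-PVP-NW minus Control difference and the brightest of the rest, up to 6 past the test between exposures, and the 2 most positive against Control; others are named for their sequence or as examples. Organ words were myosin, vitellogenin, trypsin, opsin and hemoglobin. Alternatives tried were the scaling, background, filter, weights, prior, block, floor, residual component, arrays in the fit and leaving out each array. Plots were drawn with matplotlib 3.10.9.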

Additional observations from a re-analysis of the deposited data

Results flagged for a closer look

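Within groups of 4 arrays, a single array was held to stand apart when its gap to the nearest other array, over the group's range, passed Dixon's 95% critical value. Of 132 groups of values examined for the 21 features given array by array and related means, 7 passed, and chance passes about 1 in 20. All values are normalised log2 levels. DM07126P3 was at 10.87 on S-PVP-NW 1 and at 12.72 to 12.9 on the other S-PVP-NW arrays. DM06558P2 was at 10.92 on Control 3 against 13.33 to 13.59, and DM06160P3 at 11.17 on Control 2 against 10.38 to 10.5. In Ag+, DM05983P1, which is dim there, was at 6.043 on Ag+ 3 against 6.236 to 6.275, and the mean of the 22 brighter features at 10.49 on Ag+ 2, the array with 310 zeros, against 10.09 to 10.1. In L-PVP-NW, DM06316P3 was at 6.893 on array C against 7.774 to 7.917, and DM03630P1 at 8.749 on array D against 9.45 to 9.574.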

How the results depend on the processing

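Counts of cuticle features past the test are given here for each comparison whose count moved by over 1.5 times. None of the 61 called differences of named features changed sign in the alternatives run (44 under the block). With the array floor as a covariate the counts were 7 for Ag+ minus Control, 0 for S-PVP-NW minus Control, S-SiO2-NW minus Control, L-PVP-NW minus Ag+, L-SiO2-NW minus Ag+, S-PVP-NW minus Ag+ and S-PVP-NW minus L-PVP-NW, and 2 for S-SiO2-NW minus S-PVP-NW. Median centring gave 8 for Ag+ minus Control, 3 for L-PVP-NW minus Ag+, 1 for L-SiO2-NW minus Ag+ and 2 for S-SiO2-NW minus S-PVP-NW. Fitting only the arrays compared gave 10 for S-PVP-NW minus Control, 0 for S-SiO2-NW minus Control, 14 for L-PVP-NW minus Ag+, 1 for L-SiO2-NW minus Ag+ and 0 for S-SiO2-NW minus S-PVP-NW. Array weights gave 3 for L-SiO2-NW minus Control, 5 for S-SiO2-NW minus Control, 4 for L-SiO2-NW minus L-PVP-NW and 2 for S-SiO2-NW minus S-PVP-NW. The first residual component as a covariate gave 1 for L-SiO2-NW minus Control, 1 for L-SiO2-NW minus L-PVP-NW and 3 for S-SiO2-NW minus S-PVP-NW. Restricting the features to E values of 0.001 or less leaves fewer features by construction, and gave 8 for Ag+, 11 for S-PVP-NW and 5 for S-SiO2-NW against Control, 4 for L-PVP-NW, 1 for L-SiO2-NW and 2 for S-PVP-NW against Ag+, 0 for S-SiO2-NW minus S-PVP-NW and 9 for S-PVP-NW minus L-PVP-NW. The cause of the other shifts was not tested.

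Leaving out each array gave 10 to 17 (Ag+), 0 to 0 (L-PVP-NW), 0 to 6 (L-SiO2-NW, 6 without Control 4), 12 to 24 (S-PVP-NW) and 1 to 16 (S-SiO2-NW) against Control. Against Ag+ it gave 2 to 8 (L-PVP-NW), 1 to 5 (L-SiO2-NW), 2 to 9 (S-PVP-NW) and 0 to 0 (S-SiO2-NW). For L-SiO2-NW minus L-PVP-NW it gave 0 to 1, for S-SiO2-NW minus S-PVP-NW 0 to 2, for S-PVP-NW minus L-PVP-NW 4 to 17, for S-SiO2-NW minus L-SiO2-NW and the interaction 0 to 0, and for the median correlation 0.275 to 0.388.

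The replicate block over the 20 numbered arrays gave 17 for S-PVP-NW minus Control and 1 for L-SiO2-NW minus Ag+. Same-numbered arrays of different groups correlated from -0.45 to 0.43, above 0.1 in 13 of 40 pairs, and 6 of 20 arrays correlated best with their own number. The block moved no other count by over 1.5 times and left Ag+ minus Control at 14 and S-SiO2-NW minus Ag+ at 0. A common 75th percentile moved the median of all features by -0.40 in S-SiO2-NW and -0.18 in S-PVP-NW against Control, where the cuticle medians were -0.80 and -1.43. Of 593 checks of named features, 466 stayed on their side of the threshold and 127 were no longer past it, 55 of these under the floor covariate. Depth is limited by signal: 8 of the 34 features were dim on at least 20 arrays, and their differences are understated.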

Other observations

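Among the 990 described features of the table that are no cuticle feature, the median correlation of array deviations with the mean of the cuticle features was 0.03, and 97 exceeded 0.5. The highest was DM06914P2 at 0.94, followed by DM06508P2 at 0.90 and DM05553P1 at 0.87, whose matches have E values of 2.1, 0.14 and 7.8 and so carry no usable name. Of the 8 highest, 3 have a match at 0.001 or less: DM02784P1 at 0.86, a hypothetical protein, and DM01743P3 at 0.86 and DM02810P1 at 0.83, both matching a Spätzle 2-like protein, a family of secreted ligands of Toll receptors in insects. Both were lower in S-PVP-NW than in Control, by log2 differences of -2.49 and -2.44. These features were picked for their correlation after it was computed, and nothing is said of shared function.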
